A study of Mus musculus with 18 samples.

Results

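Fatty acid uptake and oxidation was examined as a module of 40 listed genes, named by the enzymes, carriers and binding proteins that take a fatty acid from the blood to the end of mitochondrial or peroxisomal β-oxidation. The rule names genes by function and uses no measured value, but the members were chosen with earlier results of these data known. Counts of members beside the share of all genes therefore describe these data and are not a test of the module. All 40 genes were among the 12558 genes of the table. Skeletal muscle RNA of mice was read in 18 libraries, with 3 libraries for each of 6 groups, for a study of the orphan nuclear receptor NURR1 and energy balance. In 4 groups wild-type mice were fed for 10 weeks. These groups received normal chow (untreated chow), normal chow with a compound labelled AQ (AQ chow), a high-fat diet (untreated HFD) or a high-fat diet with AQ (AQ HFD), and their 12 libraries are called the AQ experiment here. AQ was given in the drinking water, and it is not spelled out in the labels. In the other 2 groups, both on HFD for 10 weeks without AQ, Nurr1 transgenic mice were compared with wild-type mice labelled as their transgenic control. The promoter of the transgene, the muscle sampled, and the age, sex and strain of the mice were not given in the sources used here. Libraries of 1 group are labelled as biological replicates, so p-values measure the spread between these libraries.

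Muscle takes much of its energy from fatty acids, especially at rest and during fasting. Lipoprotein lipase frees fatty acids from circulating triglyceride at the capillary wall, CD36 and the transport proteins of the SLC27 family carry them over the membrane, and FABP3 binds them in the cytosol. Acyl-CoA synthetases activate them, the carnitine shuttle moves long chains into mitochondria, and each turn of β-oxidation then shortens the chain through a dehydrogenase, a hydratase, another dehydrogenase and a thiolase. Double bonds in unsaturated chains need auxiliary enzymes, and the electrons of the first step pass through electron transfer flavoprotein to the respiratory chain. Nuclear receptors of the PPAR and ERR families are known to drive many of these genes in muscle.

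Libraries held 10404895 to 16082994 reads, so that 3 reads equal 0.191 to 0.277 CPM, and every member lay above that floor in every library. Levels are given in CPM (read counts scaled for library size by the authors). Nr4a2, which encodes NURR1, lay at 18.8, 30.1 and 19.8 CPM in the transgenic libraries and at 1.86, 2.30 and 1.57 CPM in their controls. The 8 listed markers of skeletal muscle summed to between 128652 and 187800 CPM. The heart marker Myh6 lay between 1.00 and 2.70 CPM. In these bulk samples, fewer cells of a type and less RNA per cell cannot be told apart. Replicate 1 of untreated chow stood apart from the other chow libraries. Its 40 members summed to 9525 CPM, against 6377 and 6059 CPM in the others of its group and 8503 to 10163 CPM on untreated HFD. Its muscle markers summed to 130552 CPM, against 173919 and 172676 CPM. It was above both other untreated chow libraries in 32 of 40 members, against 37.1% of all 12524 genes tested. Such a count is not particular to this library. AQ chow replicate 2 was above both other AQ chow libraries in 33 of 40 members, against 37.8% of all genes. Its members summed to 6898 CPM, against 5955 and 5694 CPM in those libraries.

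On HFD the module was higher, most clearly between the AQ-treated groups. A gene is called changed when its limma adjusted p over all 12524 genes is under 0.05. Log2 fold changes are given ± their standard error (SE), and each adjusted p is that of limma unless another tool is named. Between AQ HFD and AQ chow, 29 of 40 members rose and none fell, where 4.89% of all genes tested rose and 5.68% fell. Their median log2 fold change was 0.62, against -0.00 over all genes. The 8 skeletal muscle markers summed to 151696 to 175132 CPM on AQ chow and 128652 to 138659 CPM on AQ HFD, without overlap, with a median of -0.28. Of them Des, which encodes the muscle filament protein desmin, fell (-0.43 ± 0.12, adjusted p = 0.0304), a call lost without any 1 of the 6 AQ libraries except AQ HFD replicate 2 (adjusted p from 0.0604 to 0.129). The part of this shift in the members' change was not tested. Between the untreated groups 3 members rose, Ech1, Decr1 and Dbi, and none fell, where 0.0399% of all genes rose and 0.00798% fell. The median there was 0.35 against -0.00 over all genes, and 34 of 40 members lay above 0, against 49.2% of all genes. In the mean of both diet effects 28 members rose and none fell, where 3.77% of all genes rose and 3.51% fell, with changes from 0.29 to 1.60 on the log2 scale. The mean of the 40 members on the log2 scale, centred per gene, was 0.13, -0.27 and -0.32 in the untreated chow libraries and -0.38, -0.17 and -0.43 in the AQ chow libraries. It was 0.06, 0.27 and 0.18 on untreated HFD and 0.31, 0.31 and 0.22 on AQ HFD. The AQ-treated diet groups were thus fully separated, while untreated chow replicate 1 lay above the lowest untreated HFD library.

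**Figure D1:**
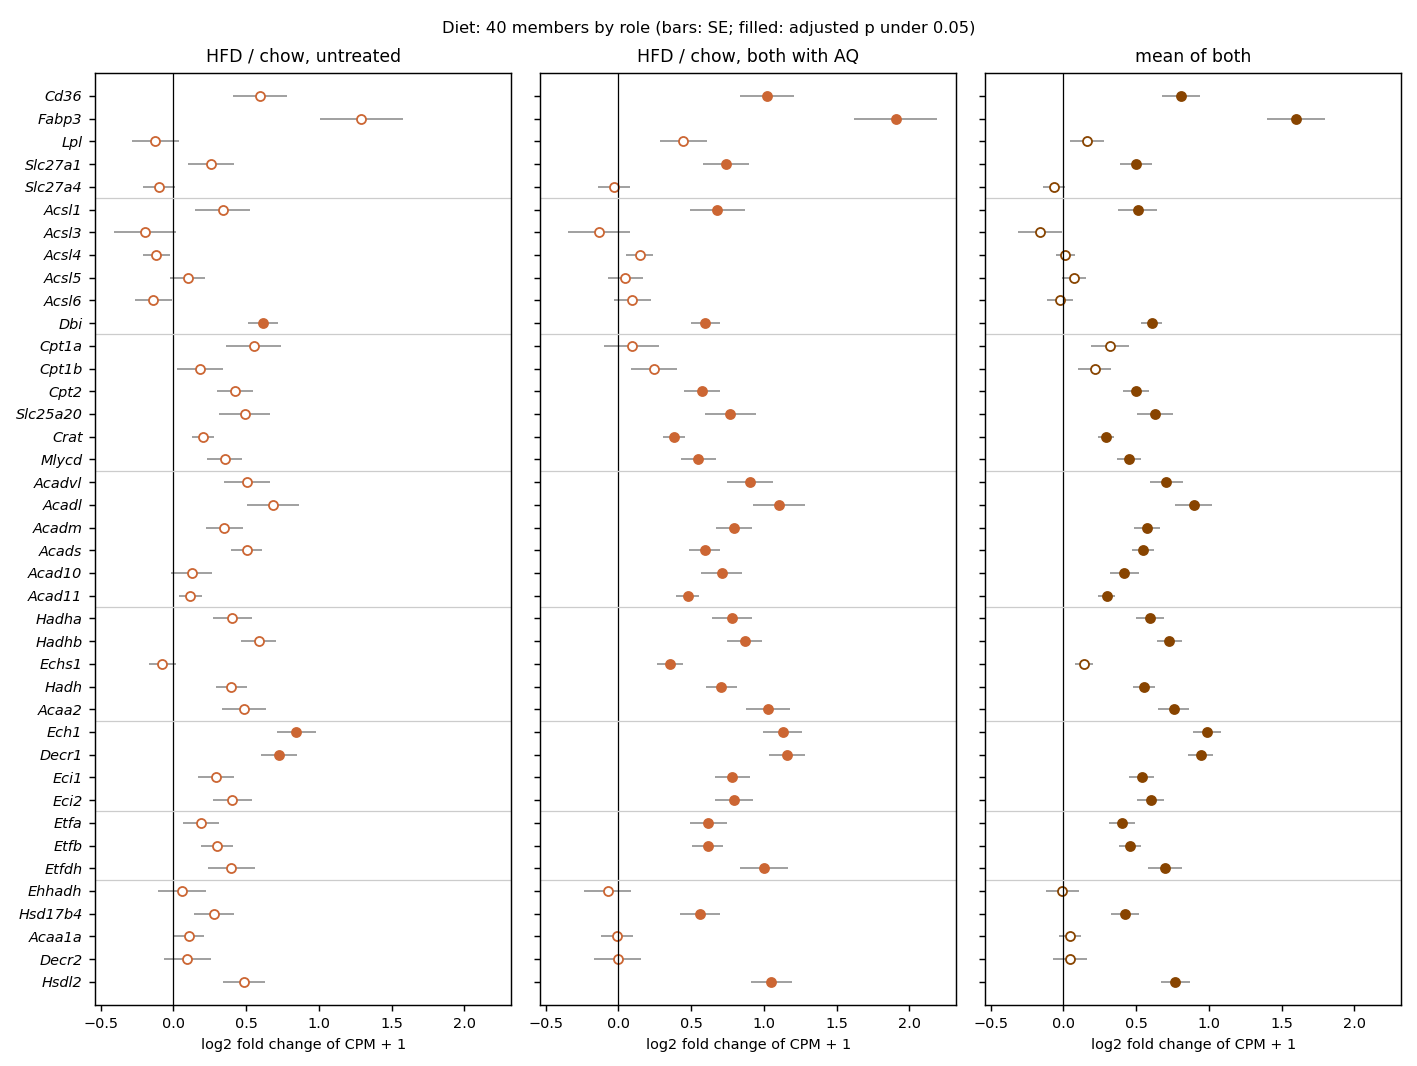
Log2 fold change (CPM + 1) of HFD over chow for the 40 members, ordered by role from uptake at the top to peroxisomal enzymes at the bottom, in untreated mice, in AQ-treated mice and as the mean of both. Bars are standard errors and filled points have a limma adjusted p under 0.05, which holds for 3, 29 and 28 members.

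The stretches before the starts of 6 members are shown because they are the promoters that hold the hexamer AGGTCA, the core letters bound by NURR1, ERR and PPAR. Windows of 250 bases before to 50 bases after the start, from RefSeq (GRCm38.p6), were found for 34 of 40 members. A gene can have several starts, with 32851 windows over all genes. Of the stretches shown, only those of Cd36 and Cpt1a lie inside the gene's GENCODE M21 span. These spans run from 17781690 to 17888801 on chromosome 5 and from 3322334 to 3385733 on chromosome 19. AGGTCA or its reverse complement TGACCT (capitals below, printed 5′ to 3′ along the gene's strand) stood in 6 of these 34 members, 17.6%, and in 18.1% of all 27025 genes with a window.
Cd36, chr5:17836079-17836146, minus strand: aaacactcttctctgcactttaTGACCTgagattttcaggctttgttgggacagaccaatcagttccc
Acadm, chr3:153944847-153944893, minus strand: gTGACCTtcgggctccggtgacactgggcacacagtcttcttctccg
Acadvl, chr11:70015470-70015555, minus strand: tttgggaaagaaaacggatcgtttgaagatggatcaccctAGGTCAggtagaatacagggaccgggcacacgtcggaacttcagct
Echs1, chr7:140116477-140116544, minus strand: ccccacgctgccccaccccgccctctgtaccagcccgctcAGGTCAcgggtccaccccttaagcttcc
Cpt1a, chr19:3323167-3323252, plus strand: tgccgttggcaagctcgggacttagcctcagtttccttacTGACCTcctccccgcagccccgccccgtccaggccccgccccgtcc
Acsl6, chr11:54303617-54303705, plus strand: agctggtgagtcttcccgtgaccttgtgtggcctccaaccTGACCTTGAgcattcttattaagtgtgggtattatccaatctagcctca
Of these genes Cd36, Acadm, Acadvl and Echs1 rose with diet under AQ, and Cpt1a and Acsl6 did not pass the threshold there. The 9 capitals of Acsl6 are the reverse complement of TCAAGGTCA, the ERR element, which holds AGGTCA and stood in 1 of 34 members and in 0.466% of all genes. Acsl6 holds a further TGACCT in the stretch printed, left in lower case. Longer elements were also searched on both strands, each holding the hexamer or a variant of it. AAAGGTCA, the NBRE element bound by NURR1 as a monomer, stood in 0 of 34 members and 1.7% of all genes. The PPAR element DR1, a direct repeat of the hexamer with a single base between the copies, stood in 0 of 34 members and 0.0481% of all genes, and a form with 1 free position in each copy in 0 of 34 and 0.451%. A match is a run of letters in this window and no evidence of binding.

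Of the 5 members that bring fatty acids to the cell, Cd36, Fabp3 and Slc27a1 rose with diet under AQ and Lpl and Slc27a4 did not pass the threshold. Fabp3, the fatty acid binding protein of heart and muscle cytosol, had the largest fold change of the 40 members in both diet comparisons. In GENCODE M21 up to 19.6% of its exonic bases lie opposite Zcchc17 and Gm10570, and the strand used in counting is not given in the sources used here. Fabp3 lay at 266, 106 and 108 CPM on untreated chow and at 87.5, 129 and 69.9 CPM on AQ chow. It lay at 306, 402 and 367 CPM on untreated HFD and at 403, 349 and 304 CPM on AQ HFD. The 6 HFD libraries of the AQ experiment all lay above the 6 chow libraries, with untreated chow replicate 1 the nearest. Control replicate 3 of the transgene, also on HFD, lay lower than that chow library at 199 CPM, and so did every transgenic library. The mean CPM of Fabp3 was 2.24 times as high on HFD as on chow without AQ and 3.69 times as high with AQ. The fit compares means of log2(CPM + 1) instead. Its log2 fold change was 1.29 ± 0.29 (adjusted p = 0.122) without AQ and 1.91 ± 0.29 (adjusted p = 0.000609) with AQ. Without untreated chow replicate 1 the difference between the untreated groups was 1.73 with an adjusted p of 0.00375. Cd36 encodes the main long-chain fatty acid translocase of muscle. Cd36 lay at 653, 396 and 355 CPM on untreated chow and at 335, 356 and 299 CPM on AQ chow. It lay at 610.3, 825 and 630.5 CPM on untreated HFD and at 685, 626 and 699.7 CPM on AQ HFD. The AQ-treated groups did not overlap, whereas untreated chow replicate 1 was above the lower 2 of the 3 untreated HFD libraries. Cd36 had a log2 fold change of 1.02 ± 0.19 (adjusted p = 0.00246) with AQ and 0.60 ± 0.19 (adjusted p = 0.347) without. Slc27a1, a fatty acid transport protein with acyl-CoA synthetase activity, ranged from 85.1 to 115 CPM on AQ chow and from 152 to 173 CPM on AQ HFD, a log2 fold change of 0.74 ± 0.16 (adjusted p = 0.0073). Lpl, the lipoprotein lipase that works at the capillary wall, had its highest value, 1526 CPM, in untreated chow replicate 1. Its AQ chow libraries lay within 850.1 to 854 CPM and its AQ HFD libraries within 1115 to 1215 CPM, without overlap, and the log2 fold change of 0.45 ± 0.16 (adjusted p = 0.0897) missed the threshold. Slc27a4, another transport protein, stayed between 13.0 and 20.8 CPM in all 18 libraries, with a log2 fold change of -0.03 ± 0.11 (adjusted p = 0.903). In the mean of both diet effects the log2 fold change was 0.81 ± 0.13 (adjusted p = 0.00171) for Cd36, 1.60 ± 0.20 (adjusted p = 0.000357) for Fabp3 and 0.50 ± 0.11 (adjusted p = 0.0123) for Slc27a1.

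**Figure D2:**
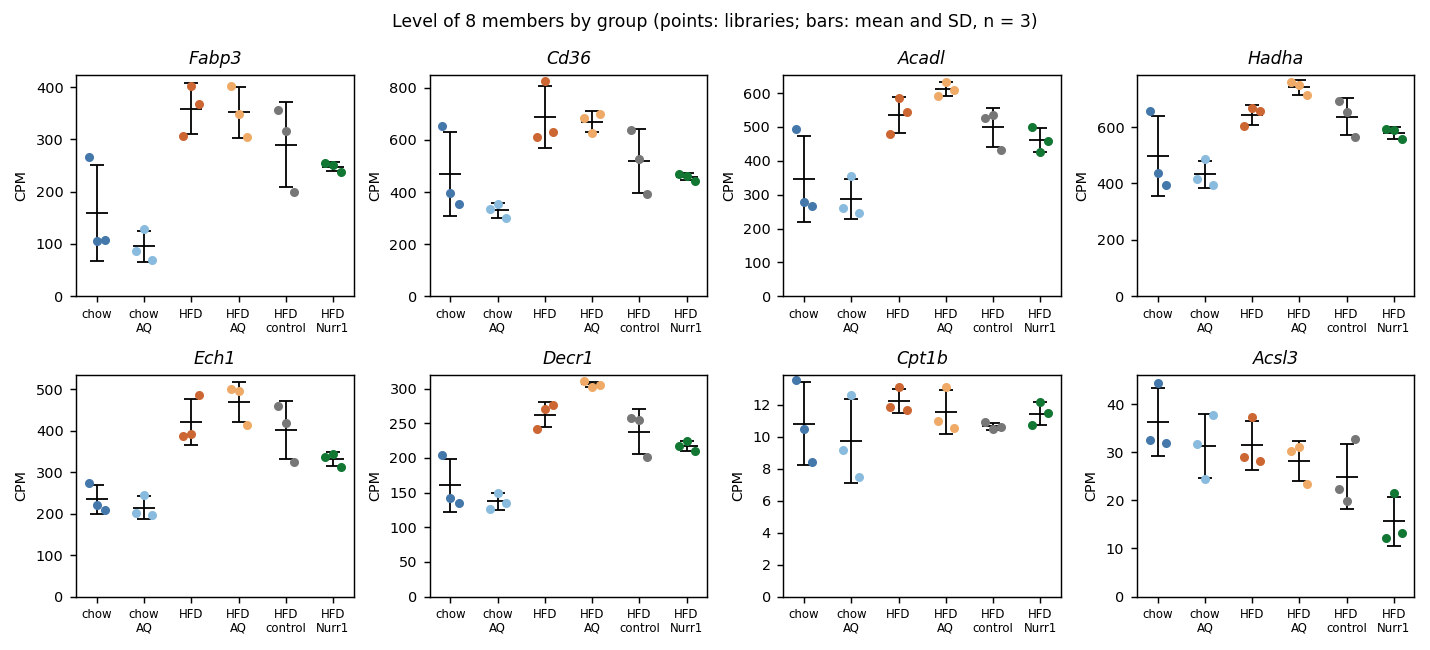
CPM of 8 members in the 6 groups (points are libraries, bars are the mean and SD, n = 3). In Fabp3 the chow libraries reach at most 266 CPM and the HFD libraries of the AQ experiment start at 304 CPM. However, 1 HFD control of the transgene, at 199 CPM, and every transgenic library lie below the highest chow library. Cpt1b stays between 7.47 and 13.6 CPM in all libraries and Acsl3 is lowest in the transgenic group.

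Among the 6 genes that activate fatty acids or hold the activated form, Acsl1 and Dbi rose with diet under AQ, and the other 4 acyl-CoA synthetases did not pass the threshold. Dbi encodes the acyl-CoA binding protein, which carries activated fatty acids in the cytosol. Dbi lay at 73.7, 67.1 and 56.8 CPM on untreated chow and at 61.7, 78.8 and 63.8 CPM on AQ chow. It lay at 97.4, 107 and 99.1 CPM on untreated HFD and at 99.9, 113 and 96.3 CPM on AQ HFD. Each of the 6 HFD libraries of the AQ experiment lay above each chow library. Dbi had a log2 fold change of 0.62 ± 0.10 (adjusted p = 0.0344) without AQ, 0.60 ± 0.10 (adjusted p = 0.00165) with AQ and 0.61 ± 0.07 (adjusted p = 0.000216) in their mean. The effect with AQ minus that without was -0.02 ± 0.14 (adjusted p = 0.967). Acsl1 is the main long-chain acyl-CoA synthetase of oxidative tissues. It had by far the most RNA of the 5 synthetases, at 133 CPM per kb of exon over the 18 libraries, against 8.65 for Acsl4, 7.08 for Acsl3, 4.21 for Acsl6 and 2.20 for Acsl5. Acsl1 lay at 709.7, 378 and 386 CPM on untreated chow and at 406, 461 and 354 CPM on AQ chow. It lay at 512, 732 and 562 CPM on untreated HFD and at 672, 631 and 645 CPM on AQ HFD. The AQ-treated diet groups did not overlap, and untreated chow replicate 1 was above all untreated HFD libraries except replicate 2. Acsl1 had a log2 fold change of 0.68 ± 0.19 (adjusted p = 0.0282) with AQ and 0.51 ± 0.13 (adjusted p = 0.0271) in the mean of both. That call was lost with AQ without AQ chow replicate 1 or 3, or any 1 of the AQ HFD libraries (adjusted p from 0.0618 to 0.127). The call in the mean was lost without untreated chow replicate 2 or 3, AQ chow replicate 1 or 3, untreated HFD replicate 2, or AQ HFD replicate 1 or 3 (adjusted p from 0.0567 to 0.0799). The remaining synthetases lay within 7.45 to 11.2 CPM (Acsl5), 25.6 to 40 CPM (Acsl6), 39.6 to 60.0 CPM (Acsl4) and 12.3 to 44.4 CPM (Acsl3) over the 18 libraries. Their log2 fold changes with diet under AQ ran from -0.13 ± 0.21 for Acsl3 to 0.15 ± 0.09 for Acsl4, with adjusted p of 0.354 or more.

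In the carnitine shuttle 4 of 6 members rose with diet under AQ, and neither isoform of carnitine palmitoyltransferase 1, the step that controls entry of long chains into mitochondria, passed the threshold. Slc25a20 encodes the carnitine-acylcarnitine exchanger of the inner membrane. Slc25a20 lay at 126, 76.9 and 79.7 CPM on untreated chow and at 74.6, 94.8 and 70.7 CPM on AQ chow. It lay at 105, 163 and 126 CPM on untreated HFD and at 145, 133 and 130.3 CPM on AQ HFD. Its AQ-treated diet groups did not overlap. Slc25a20 had a log2 fold change of 0.77 ± 0.17 (adjusted p = 0.0098) with AQ and 0.63 ± 0.12 (adjusted p = 0.00516) in the mean of both. Cpt2, the transferase of the inner membrane, ranged from 79.3 to 95.4 CPM on AQ chow and from 122 to 135 CPM on AQ HFD, with log2 fold changes of 0.58 ± 0.12 (adjusted p = 0.00727) and, in the mean of both, 0.50 ± 0.09 (adjusted p = 0.00277). Crat, carnitine acetyltransferase, which buffers acetyl-CoA, had a small and tight change of 0.38 ± 0.08 (adjusted p = 0.00428) with AQ and 0.29 ± 0.05 (adjusted p = 0.00355) in the mean of both. Mlycd, malonyl-CoA decarboxylase, removes the malonyl-CoA that inhibits the first transferase. Its log2 fold change was 0.55 ± 0.12 (adjusted p = 0.00834) with AQ and 0.45 ± 0.09 (adjusted p = 0.00422) in the mean of both. The calls of Mlycd and Slc25a20 with AQ were lost without AQ chow replicate 3 (adjusted p = 0.0543 and 0.0555).

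Cpt1b, the muscle isoform, and Cpt1a, the liver isoform, were both low, at 3.83 and 4.54 CPM per kb of exon. In GENCODE M21, 94.8% of the exonic bases of Cpt1b are shared with a readthrough gene model on the same strand, Gm44502, and whether the authors' counting dropped or split reads there is not given in the sources used here, so that the level of Cpt1b is uncertain. Cpt1b lay at 13.6, 10.5 and 8.41 CPM on untreated chow and at 9.16, 12.6 and 7.47 CPM on AQ chow. It lay at 11.9, 13.1 and 11.7 CPM on untreated HFD and at 10.96, 13.1 and 10.5 CPM on AQ HFD. The groups overlapped, and the log2 fold change was 0.24 ± 0.16 (adjusted p = 0.359) with AQ and 0.18 ± 0.16 (adjusted p = 0.726) without. Cpt1a had another pattern. Cpt1a lay at 17.7, 12.5 and 21.3 CPM on untreated chow and at 16.5, 15.5 and 15.1 CPM on AQ chow. It lay at 26.8, 26.6 and 22.2 CPM on untreated HFD and at 18.2, 16.0 and 16.3 CPM on AQ HFD. All 3 untreated HFD libraries lay above the other 9 libraries of the AQ experiment, while the controls of the transgene spread over 28.0, 17.9 and 14.1 CPM. The log2 fold change of Cpt1a with diet was 0.55 ± 0.19 (adjusted p = 0.365) without AQ and 0.09 ± 0.19 (adjusted p = 0.814) with AQ, and the difference between these effects did not pass (-0.46 ± 0.27, adjusted p = 0.446).

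All 6 acyl-CoA dehydrogenases, which carry out the first step of each turn, rose with diet under AQ, and the AQ chow and AQ HFD libraries did not overlap for any of the 6. Acadl encodes the long-chain enzyme. Acadl lay at 494, 277 and 267 CPM on untreated chow and at 260.3, 356 and 246 CPM on AQ chow. It lay at 478, 585 and 544 CPM on untreated HFD and at 592, 634 and 609 CPM on AQ HFD. Untreated chow replicate 1 was above the lowest untreated HFD library and the other 5 chow libraries were below all HFD libraries. Acadl had a log2 fold change of 1.11 ± 0.18 (adjusted p = 0.00119) with AQ, 0.68 ± 0.18 (adjusted p = 0.225) without and 0.89 ± 0.13 (adjusted p = 0.000773) in the mean of both. Acadvl, the very-long-chain enzyme of the inner membrane, changed by 0.91 ± 0.16 (adjusted p = 0.00199) with AQ and 0.71 ± 0.11 (adjusted p = 0.00147) in the mean of both. In GENCODE M21 45.0% of its exonic bases lie opposite Dvl2. Acadm, the medium-chain enzyme, changed by 0.79 ± 0.13 (adjusted p = 0.000971) and 0.57 ± 0.09 (adjusted p = 0.0012), in the same order. Acads, the short-chain enzyme, changed by 0.59 ± 0.11 (adjusted p = 0.00226) and 0.55 ± 0.08 (adjusted p = 0.000624), and it was the only dehydrogenase whose untreated diet groups did not overlap either (0.50 ± 0.11, adjusted p = 0.11). Acad11, a related dehydrogenase, changed by 0.48 ± 0.08 (adjusted p = 0.00139) and 0.30 ± 0.06 (adjusted p = 0.00422). Acad10 was the lowest of the 6, at 1.06 CPM per kb of exon. Acad10 lay at 4.76, 4.87 and 3.92 CPM on untreated chow and at 2.75, 2.86 and 3.00 CPM on AQ chow. It lay at 4.15, 4.98 and 6.02 CPM on untreated HFD and at 6.05, 5.39 and 4.62 CPM on AQ HFD. The AQ chow libraries were the 3 lowest of these 12. Acad10 had a log2 fold change of 0.71 ± 0.14 (adjusted p = 0.00428) with AQ, 0.13 ± 0.14 (adjusted p = 0.807) without and 0.42 ± 0.10 (adjusted p = 0.0167) in the mean of both.

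The 5 genes of the hydratase, dehydrogenase and thiolase steps all rose with diet under AQ. Hadha and Hadhb encode the subunits of the trifunctional protein, which carries out these steps on long chains, and they lie head to head on chromosome 5, from 30118304 to 30155162 and from 30155248 to 30184593 (GRCm38). Hadha lay at 659, 436 and 395 CPM on untreated chow and at 415, 485 and 395 CPM on AQ chow. It lay at 602, 668 and 658 CPM on untreated HFD and at 761, 747 and 712 CPM on AQ HFD. Untreated chow replicate 1 stood among the untreated HFD libraries, and every AQ HFD library lay above every other wild-type library. Hadha had a log2 fold change of 0.78 ± 0.14 (adjusted p = 0.00199) with AQ and 0.59 ± 0.10 (adjusted p = 0.00171) in the mean of both. Hadhb changed by 0.87 ± 0.12 (adjusted p = 0.000323) and 0.73 ± 0.08 (adjusted p = 0.000194), in the same order, and its value without AQ was 0.59 ± 0.12 (adjusted p = 0.0967). Its level per kb of exon was 29.0 CPM against 146 CPM for Hadha. Hadh, the dehydrogenase for shorter chains, changed by 0.71 ± 0.10 (adjusted p = 0.000559) with AQ and 0.55 ± 0.07 (adjusted p = 0.000491) in the mean, and its value without AQ was 0.40 ± 0.10 (adjusted p = 0.225). Acaa2, the mitochondrial thiolase, changed by 1.03 ± 0.15 (adjusted p = 0.000511) with AQ and 0.76 ± 0.11 (adjusted p = 0.000687) in the mean.

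Echs1, the short-chain enoyl-CoA hydratase, had the smallest change with diet of these 5 genes. Echs1 lay at 129.9, 118 and 108 CPM on untreated chow and at 103, 125 and 98.8 CPM on AQ chow. It lay at 106, 115 and 116 CPM on untreated HFD and at 139, 149.5 and 129 CPM on AQ HFD. The untreated groups overlapped and their means were close, and the AQ HFD libraries were above the untreated HFD libraries and the AQ chow libraries. The log2 fold change of Echs1 with diet was -0.08 ± 0.09 (adjusted p = 0.826) without AQ and 0.36 ± 0.09 (adjusted p = 0.0195) with AQ. In the mean of both it was 0.14 ± 0.06 (adjusted p = 0.205), the only member called with AQ and not in the mean. The call with AQ was lost without AQ chow replicate 1 or 3 or AQ HFD replicate 1 or 2 (adjusted p from 0.0558 to 0.107).

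The auxiliary enzymes of unsaturated chains had the largest median log2 fold change of the 8 roles, 0.96 with AQ and 0.57 without. All 4 rose under AQ, and Ech1 and Decr1 were also among the 3 members called between the untreated groups. Decr1 encodes the dienoyl-CoA reductase of mitochondria. Decr1 lay at 204, 142 and 135 CPM on untreated chow and at 127, 149.8 and 135 CPM on AQ chow. It lay at 241, 269.9 and 276 CPM on untreated HFD and at 311, 303 and 305 CPM on AQ HFD. The 6 HFD libraries of the AQ experiment lay above the 6 chow libraries, and the 3 AQ HFD libraries above all others. Decr1 had a log2 fold change of 0.73 ± 0.12 (adjusted p = 0.0344) without AQ, 1.16 ± 0.12 (adjusted p = 5.18e-05) with AQ and 0.94 ± 0.09 (adjusted p = 2.41e-05) in the mean of both. Ech1 encodes an isomerase that moves double bonds in dienoyl-CoA. Ech1 lay at 273, 222 and 208 CPM on untreated chow and at 202, 245 and 196 CPM on AQ chow. It lay at 386, 391 and 485 CPM on untreated HFD and at 500.3, 495 and 414 CPM on AQ HFD. In the AQ experiment the lowest HFD library was 386 CPM and the highest chow library 273 CPM, and the lowest of the other 6 HFD libraries was 311 CPM. Ech1 had a log2 fold change of 0.84 ± 0.13 (adjusted p = 0.0274) without AQ, 1.13 ± 0.13 (adjusted p = 0.000138) with AQ and 0.99 ± 0.09 (adjusted p = 2.41e-05) in the mean of both. Eci1 and Eci2 encode enoyl-CoA isomerases, the latter with a form in peroxisomes. Eci1 changed by 0.78 ± 0.12 (adjusted p = 0.000918) with AQ and 0.54 ± 0.09 (adjusted p = 0.00159) in the mean. Eci2 changed by 0.79 ± 0.13 (adjusted p = 0.00133) and 0.60 ± 0.09 (adjusted p = 0.00118).

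The calls between untreated HFD and untreated chow depended on which libraries were included. Without untreated chow replicate 1, 17 members passed, among them Ech1, Decr1 and Dbi. Over all genes tested, 40 genes passed in that fit, these members included. Without untreated chow replicate 2 or 3, or without untreated HFD replicate 2 or 3, 0 members passed. Without untreated HFD replicate 1, Ech1 was the only member to pass. Over all genes tested, 0 passed without untreated chow replicate 2 or 3 or without untreated HFD replicate 2. Without untreated HFD replicate 3 there were 6 genes, and without untreated HFD replicate 1 there were 4. Where a call was lost in this way, the log2 fold change was 0.74 to 0.89 for Ech1, 0.62 to 0.79 for Decr1 and 0.52 to 0.64 for Dbi. With only the groups compared 0 members and 2 of all genes tested passed. DESeq2 called 5 members among 47 genes, with Hadhb and Acads added, and edgeR 2 members among 5 genes, without Decr1 (adjusted p = 0.0613). At an unadjusted p under 0.05 there were 23 of 40 members, against 9.53% of all genes. The untreated groups did not overlap in 12 members, all higher on HFD and 0 lower, against 6.32% and 6.1% of all genes. With AQ, 30 members did not overlap, all higher on HFD, against 15.8% of all genes, and leaving out 1 library left 24 to 29 members called. The calls with AQ among all genes tested went from 1324 to between 573 and 1130 in those fits.

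Electron transfer from the acyl-CoA dehydrogenases runs through the flavoprotein subunits encoded by Etfa and Etfb and the dehydrogenase encoded by Etfdh, and all 3 rose with diet under AQ. Etfdh lay at 337, 202 and 184 CPM on untreated chow and at 177, 206 and 153 CPM on AQ chow. It lay at 284, 355 and 286 CPM on untreated HFD and at 365, 341 and 359 CPM on AQ HFD. Untreated chow replicate 1 was above 2 of the 3 untreated HFD libraries, and the AQ-treated groups did not overlap. Etfdh had a log2 fold change of 1.00 ± 0.16 (adjusted p = 0.00128) with AQ and 0.70 ± 0.12 (adjusted p = 0.00193) in the mean of both. Etfa changed by 0.62 ± 0.13 (adjusted p = 0.00511) with AQ and 0.40 ± 0.09 (adjusted p = 0.0108) in the mean. Etfb changed by 0.61 ± 0.11 (adjusted p = 0.002) and 0.46 ± 0.08 (adjusted p = 0.002), and 69.1% of its exonic bases are shared with another gene model on the same strand in GENCODE M21.

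In the group of peroxisomal and related enzymes, Hsdl2 and Hsd17b4 rose with diet under AQ and Ehhadh, Acaa1a and Decr2 did not pass the threshold. Hsdl2 encodes a dehydrogenase-like protein. Hsdl2 lay at 158, 102 and 94.9 CPM on untreated chow and at 85.7, 96.5 and 80.7 CPM on AQ chow. It lay at 151, 179.5 and 156 CPM on untreated HFD and at 188, 172 and 186 CPM on AQ HFD. Untreated chow replicate 1 again stood among the untreated HFD libraries. Hsdl2 had a log2 fold change of 1.05 ± 0.14 (adjusted p = 0.000286) with AQ and 0.77 ± 0.10 (adjusted p = 0.000388) in the mean of both. Hsd17b4, the multifunctional enzyme of peroxisomes, changed by 0.56 ± 0.14 (adjusted p = 0.0146) with AQ and 0.42 ± 0.10 (adjusted p = 0.0139) in the mean. The call of Hsd17b4 with AQ was lost without AQ chow replicate 1 or 3 or AQ HFD replicate 1 (adjusted p from 0.0625 to 0.0691). Ehhadh, Acaa1a and Decr2, which encode the bifunctional enzyme, a thiolase and a reductase of peroxisomes, had log2 fold changes with AQ of -0.07 ± 0.16, -0.01 ± 0.11 and -0.00 ± 0.16, with adjusted p of 0.825 or more. They lay within 6.29 to 12.4 CPM, 20.5 to 30.8 CPM and 2.70 to 4.46 CPM over the 18 libraries.

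The members moved together to different degrees. Over the 18 libraries, 22 members had a Pearson r above 0.9 with the mean of the other 39 members on the log2 scale, led by Acaa2 at 0.991. For 10 members r was below 0.5, from -0.22 for Acsl3 to 0.44 for Echs1, and the others were Acsl4, Acsl5, Acsl6, Slc27a4, Cpt1a, Ehhadh, Acaa1a and Decr2. These libraries share diet groups and a common scale, so the values describe them and are not a test. Outside the 40 members, the genes with the highest r to the member mean were Ephx2 (0.969), Nudt7 (0.957), Plbd1 (0.957), Acat1 (0.939) and Abcd3 (0.925). Ephx2 encodes soluble epoxide hydrolase, Nudt7 a peroxisomal hydrolase of coenzyme A, Acat1 the mitochondrial acetoacetyl-CoA thiolase and Abcd3 a peroxisomal fatty acid transporter. All 4 HFD group means lay above both chow group means in 23 of 40 members, against 7.03% of all genes, and all 4 lay below in 0, against 7.89%. The 6 HFD libraries of the AQ experiment lay above all 6 chow libraries in 9 members, against 0.886% of all genes. Without untreated chow replicate 1 this held in 25 members, against 2.3%. The 12 HFD libraries, transgenic groups included, lay above all 6 chow libraries in 2 members and, without that replicate, in 21, against 0.16% and 0.551%.

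Other genes of fatty acid handling were read from 6 lists beside the members. With diet under AQ, where 4.89% of all genes rose, 4 of 14 other peroxisomal genes rose, with a median log2 fold change of 0.19. Among them were Scp2, a lipid carrier (0.45 ± 0.07, adjusted p = 0.000918), Pex11a, which acts in peroxisome division (0.81 ± 0.14, adjusted p = 0.00202), and Abcd3 (0.51 ± 0.10, adjusted p = 0.0045). Of 14 other genes of mitochondrial oxidation 5 rose, with a median of 0.24, and Acat1 led them (0.65 ± 0.08, adjusted p = 0.000181). Of 11 other genes of uptake and carnitine supply 3 rose, with a median of 0.31: Gpihbp1, which holds lipoprotein lipase on the capillary wall (0.62 ± 0.15, adjusted p = 0.0138), the carnitine transporter Slc22a5 (0.58 ± 0.15, adjusted p = 0.0221) and the acyl-CoA binding protein gene Acbd5 (0.31 ± 0.08, adjusted p = 0.02). Among 12 regulators of malonyl-CoA and lipid use, Abhd5, the coactivator of triglyceride lipase, rose (0.32 ± 0.09, adjusted p = 0.0242) and the median was -0.04. Of 15 genes of PPAR and ERR receptors and their coactivators, 1 rose and 2 fell. The corepressor Nrip1 rose by 1.00 ± 0.17 (adjusted p = 0.00162), Lpin1, which encodes a lipin, changed by -0.54 ± 0.12 (adjusted p = 0.00759) and the receptor gene Ppard by -0.33 ± 0.09 (adjusted p = 0.0208). Of 11 genes that fatty acids are known to induce, 3 rose, among them the acyl-CoA thioesterase gene Acot1 (1.68 ± 0.24, adjusted p = 0.000505) and the lipid droplet gene Plin5 (1.66 ± 0.31, adjusted p = 0.00259), with a median of 0.10. The pyruvate dehydrogenase kinase gene Pdk2 fell (-0.39 ± 0.07, adjusted p = 0.00353). Between the untreated groups 0 genes of these 6 lists were called by limma, and at an unadjusted p under 0.05 there were 10 of the 11 induced genes (median 0.80), all higher on HFD except Pdk2 (-0.18 ± 0.07). Those of the other lists were Pex11a, Abcd3 and Scp2, higher, and Crot, lower, among the peroxisomal genes, and Acat1, higher, and Acadsb, lower (-0.33 ± 0.09), among the mitochondrial ones. Fabp4 (0.68 ± 0.17), Mgll and Lipe were higher and Prkaa2 lower in the lists of uptake and of regulators, and 0 of the 15 receptor genes reached this p. These genes outside the naming rule are given because the counts are small. With AQ, the calls of Gpihbp1, Slc22a5, Acbd5, Abhd5 and Ppard were lost with a library left out (adjusted p from 0.0523 to 0.12), and each of the 6 AQ libraries ended at least 1 of them.

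Many genes of the respiratory chain and citrate cycle rose as well. With diet under AQ, 17 of 25 respiratory chain genes rose with a median log2 fold change of 0.36, and 9 of 16 citrate cycle genes rose with a median of 0.33, against 0.62 for the members. Of all genes tested, 4.89% rose in that comparison. The smallest p in each list were those of Ndufs1 in complex I (0.56 ± 0.09, adjusted p = 0.00133) and Sucla2, a subunit of succinyl-CoA synthetase (0.45 ± 0.07, adjusted p = 0.000793). Between the untreated groups the medians were 0.16 and 0.18 and 0 genes of either list were called by limma, with 5 and 4 at an unadjusted p under 0.05, against 9.53% of all genes.

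**Figure D3:**
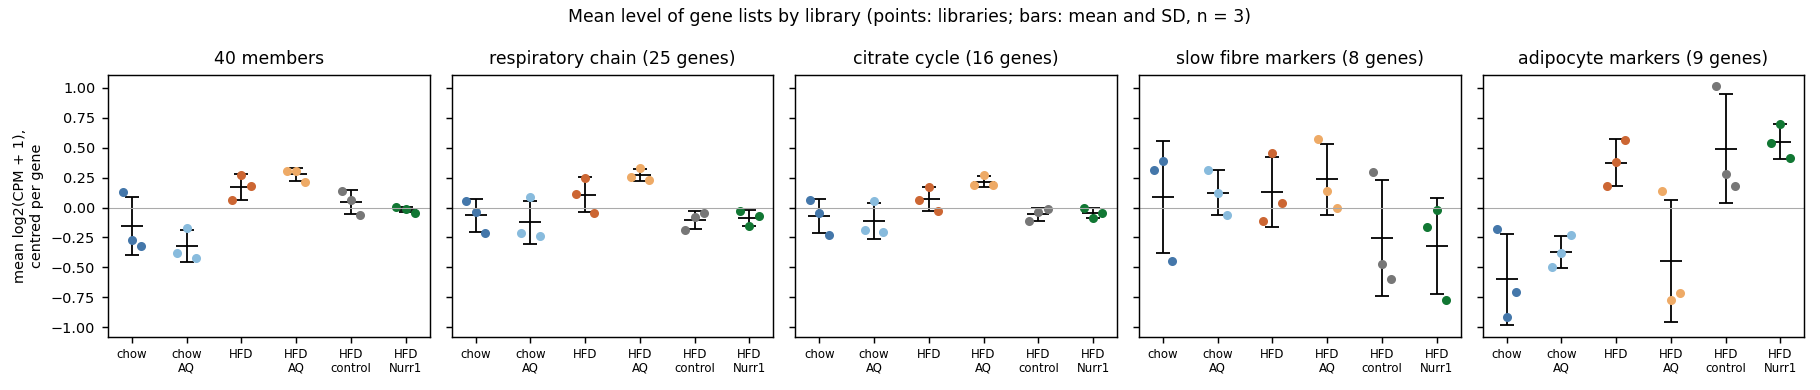
Mean log2(CPM + 1), centred per gene, of the 40 members, the respiratory chain, the citrate cycle and the markers of slow fibres and adipocytes in each library (points), with the mean and SD of each group (n = 3). The members separate AQ HFD, at 0.22 to 0.31, from AQ chow, at -0.43 to -0.17, while slow fibre markers overlap between the chow and HFD groups of the AQ experiment.

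Markers of fibre type and of other cells were read beside the members. The 8 slow fibre markers, whose fibres oxidise more fat, had a median log2 fold change of 0.08 with diet under AQ and 0.06 without, with 0 called in either. Their sum ran from 1121 to 1513 CPM on AQ chow and from 1146 to 1692 CPM on AQ HFD, and from 895 to 1525 CPM and 1116 to 1573 CPM in the untreated groups. The 9 adipocyte markers with a row had a median of 1.03 without AQ (0 called, 6 at an unadjusted p under 0.05) and -0.27 with AQ (Adig rose). Without Car3, which muscle also expresses, they summed to 191 to 309 CPM on untreated chow, 352 to 413 CPM on untreated HFD, 220.5 to 269 CPM on AQ chow and 250.1 to 333 CPM on AQ HFD. None of the 9 was at 0, and Adrb3 was not analysed here. Cd36, Lpl and Acsl1 are also known in adipocytes, and the part of adipocytes in the untreated comparison was not tested. Of 8 fibroblast genes 1 rose and 3 fell with diet under AQ, and 1 of 6 leukocyte genes, Csf1r, fell. Without AQ none of these genes was called. The fibroblast genes Lum (0.46 ± 0.14) and Col6a3 (0.39 ± 0.17) and the leukocyte gene Cd68 (0.69 ± 0.30) were higher on untreated HFD at an unadjusted p under 0.05, against 9.53% of all genes. The calls of Adig and Csf1r were lost without AQ chow replicate 1 or 3 or AQ HFD replicate 1 or 2, and that of Csf1r also without the other AQ libraries (adjusted p from 0.0725 to 0.136). Of the 5 brown adipocyte markers, Cidea, Cox8b and Ppara had a row, and Ucp1 and Elovl3 were not analysed here. Their mean log2 level, centred per gene, was 0.42, -0.01 and -0.36 on untreated chow and -0.45, -0.27 and -0.35 on AQ chow. It was 0.38, 0.48 and 0.10 on untreated HFD and 0.48, 0.19 and 0.09 on AQ HFD, so that the AQ-treated groups were separated and untreated chow replicate 1 lay among the untreated HFD libraries. Cidea, which encodes a lipid droplet protein, lay at 1.59, 0.487 and 0.385 CPM on untreated chow, 0.352, 0.488 and 0.513 CPM on AQ chow, 1.80, 3.82 and 2.07 CPM on untreated HFD and 4.08, 1.75 and 2.22 CPM on AQ HFD. It rose with diet under AQ (1.29 ± 0.25, adjusted p = 0.00413), and the values without AQ were 0.99 ± 0.25 (adjusted p = 0.222). Cox8b (0.15 ± 0.10, adjusted p = 0.412) and Ppara (0.40 ± 0.29, adjusted p = 0.433), which muscle also expresses, did not pass with AQ. The part of such cells in the members' changes was not tested. Of 8 endothelial markers 1, Gpihbp1, rose with diet under AQ, with a median of 0.10. Cldn5, Kdr and Vwf had a lower mean log2 level on AQ HFD than on AQ chow, and Pecam1, Cdh5, Tie1 and Emcn a higher one. Pecam1 (0.26 ± 0.10), Tie1 (0.26 ± 0.12) and Vwf (0.19 ± 0.09) were higher on untreated HFD than on untreated chow at an unadjusted p under 0.05, without a call. Of 9 fast fibre markers 0 were called with diet under AQ, with a median of -0.11. Genes of the circadian clock differed as well: 4 of 12 rose and 4 fell with diet under AQ, among them Arntl (-2.41 ± 0.28, adjusted p = 0.000112) and Per2 (2.09 ± 0.30, adjusted p = 0.000455). Arntl lay at 29.3, 17.5 and 7.83 CPM on untreated chow, 36.1, 36.9 and 45.8 CPM on AQ chow, 11.8, 8.38 and 8.69 CPM on untreated HFD and 5.29, 7.70 and 6.93 CPM on AQ HFD. Between the untreated diet groups 0 clock genes were called, and 1 had an unadjusted p under 0.05. The hour of sampling is not given in the sources used here, and the part of the clock in the members' changes was not tested.

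AQ itself called no member on either diet. On HFD, 0 of 40 members were called, where 0.0479% of all genes were, and edgeR and DESeq2 also called 0. At an unadjusted p under 0.05 there were 6 members, against 11.8% of all genes. The median log2 fold change was 0.16 and 32 of 40 members lay above 0, against 50.5% of all genes. The groups did not overlap in 10 members with AQ higher and in 1, Cpt1a, with AQ lower, against 7.39% and 8.91% of all genes. Echs1 had the smallest p (0.30 ± 0.09, adjusted p = 0.171), followed by Cpt1a, at 16.8 ± 1.2 CPM (SD, n = 3) with AQ and 25.2 ± 2.6 CPM without (-0.55 ± 0.19, adjusted p = 0.236). Next were Acad11 (0.20 ± 0.08, adjusted p = 0.332) and Acads (0.26 ± 0.11, adjusted p = 0.336).

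On chow the members lay mostly lower with AQ, and none was called. Of 40 members 33 were below 0 and 7 above, where 48.3% of all genes were above 0, and the median log2 fold change was -0.18. limma, edgeR and DESeq2 each called 0 members, where 1.11% of all genes were called by limma, and 9 had an unadjusted p under 0.05, against 15.5% of all genes. Without untreated chow replicate 1 the median was -0.04 and 24 members were below 0. Acad10 had the smallest p. It lay at 2.87 ± 0.127 CPM (SD, n = 3) with AQ and 4.51 ± 0.521 CPM without, the only member whose libraries were all lower with AQ, against 8.97% of all genes (-0.51 ± 0.14, adjusted p = 0.0954). Hsdl2 (-0.40 ± 0.14, adjusted p = 0.191), Eci2 (-0.35 ± 0.13, adjusted p = 0.213) and Eci1 (-0.32 ± 0.12, adjusted p = 0.224) followed. Ehhadh was the only member whose libraries were all higher with AQ, against 10.9% of all genes (0.34 ± 0.16, adjusted p = 0.317). Nrip1 fell with AQ on chow (-0.91 ± 0.17, adjusted p = 0.0216), and of the 12 clock genes Arntl and Npas2 rose and Per2 fell (-1.30 ± 0.30, adjusted p = 0.044). The endothelial markers Vwf (0.45 ± 0.09, adjusted p = 0.0251) and Cldn5 (0.93 ± 0.21, adjusted p = 0.0451) rose with AQ on chow, 2 of 8, with a median of 0.27. None of these 6 calls passed with only the groups compared (adjusted p from 0.0794 to 0.225) or without AQ chow replicate 3 (adjusted p from 0.0628 to 0.175).

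The test of whether AQ acted differently on the 2 diets called no member. With limma 0 of 40 passed, where 0.711% of all genes did, edgeR and DESeq2 also called 0, and 12 members had an unadjusted p under 0.05, against 14.1% of all genes. The median difference was 0.31 on the log2 scale with 34 of 40 above 0, against 51.3% of all genes, and without untreated chow replicate 1 it was 0.16 with 31 above 0. The smallest p were those of Echs1 (0.43 ± 0.13, adjusted p = 0.134), Acad11 (0.36 ± 0.11, adjusted p = 0.148), Acad10 (0.58 ± 0.20, adjusted p = 0.187) and Eci1 (0.49 ± 0.17, adjusted p = 0.208). The larger number of calls with diet under AQ than without AQ is therefore not shown to be a difference between these effects. The AQ HFD group had the highest mean of the 6 groups in 28 members and the AQ chow group the lowest in 28.

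**Figure D4:**
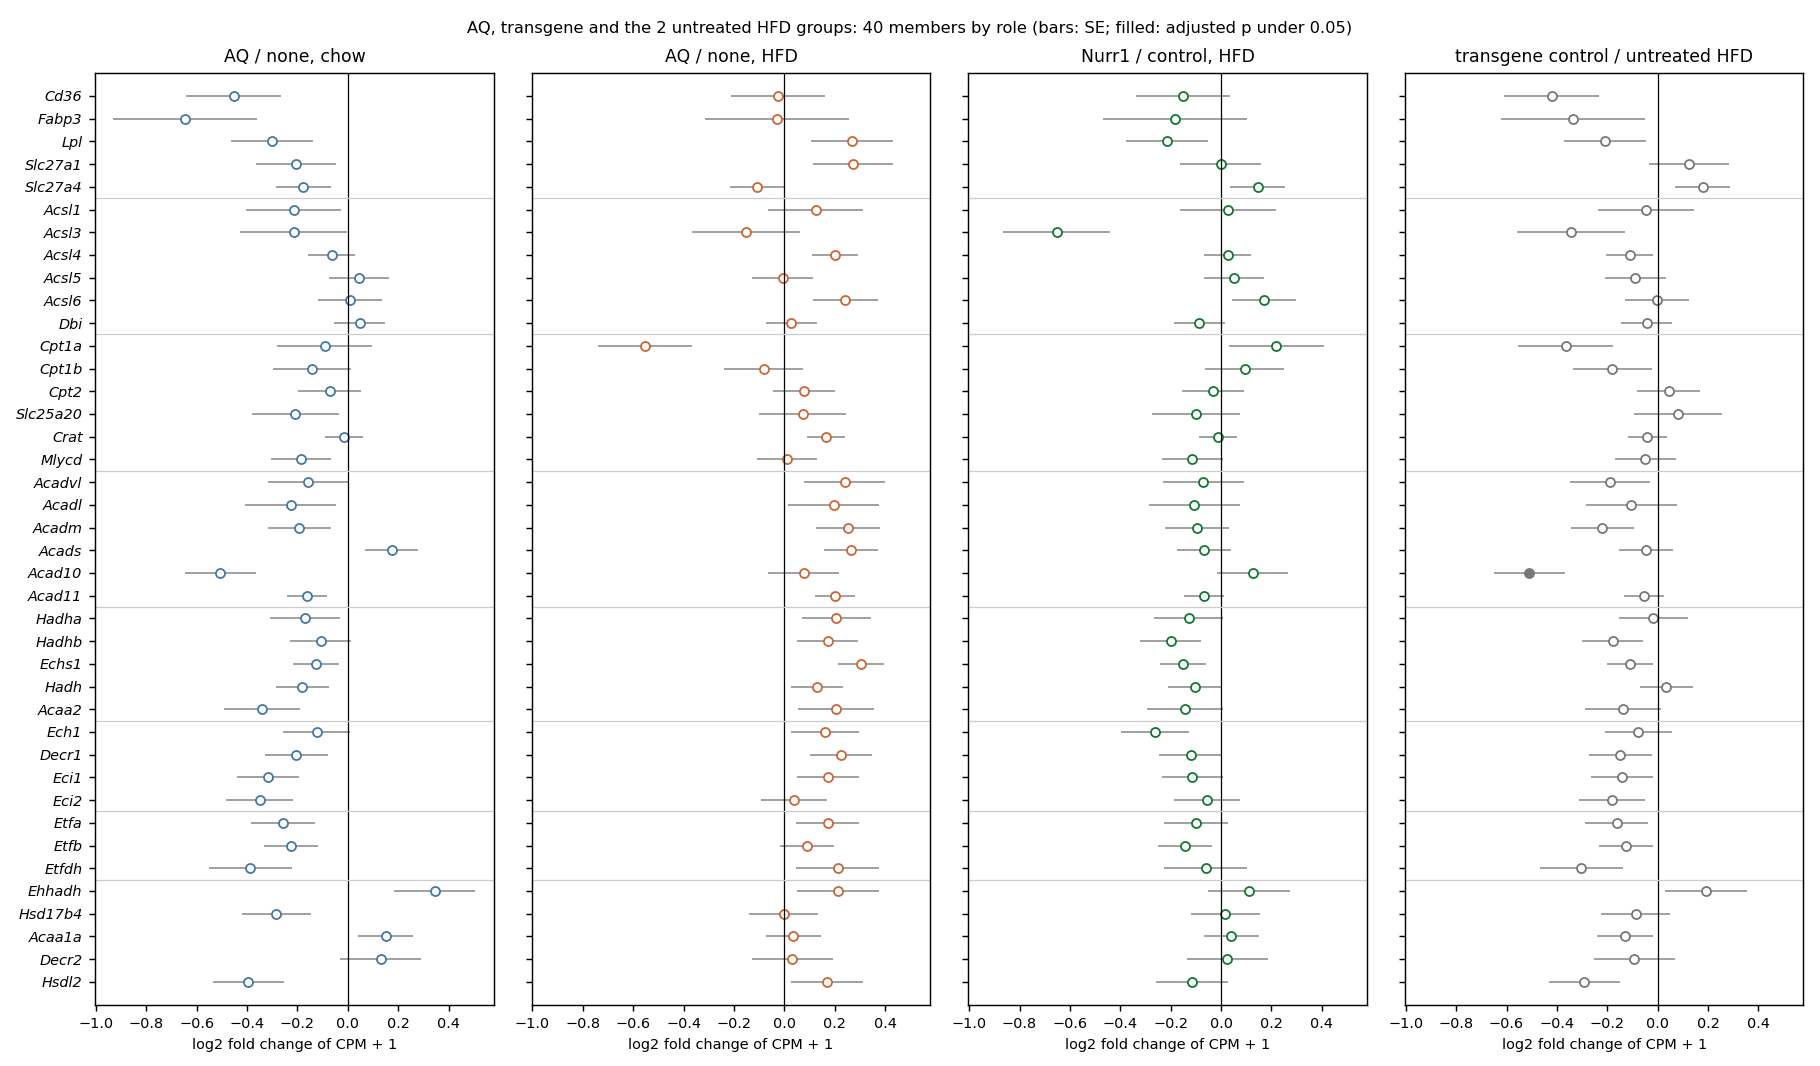
Log2 fold change (CPM + 1) of the 40 members for AQ on chow, AQ on HFD, the Nurr1 transgene on HFD, and the wild-type controls of the transgene against untreated wild-type HFD mice. Bars are standard errors, and the only filled point, with a limma adjusted p under 0.05, is Acad10 in the last panel.

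The Nurr1 transgene did not change a member past the threshold. Between transgenic muscle and its controls, 0 of 40 members were called by limma, edgeR or DESeq2, where 0.599% of all genes were called by limma. A single member, Acsl3, had an unadjusted p under 0.05, against 8.95% of all genes. The median log2 fold change was -0.08, with 28 of 40 members below 0 and 12 above, where 49.7% of all genes were above 0. Acsl3 lay at 12.3, 21.4 and 13.2 CPM in transgenic libraries and at 22.3, 19.8 and 32.7 CPM in controls. The highest transgenic library overlapped the lowest control library (-0.65 ± 0.21, adjusted p = 0.26). Ech1 lay at 337, 345 and 311 CPM against 459.8, 419 and 324 CPM in controls, also with overlap (-0.26 ± 0.13, adjusted p = 0.605). Hadhb (-0.20 ± 0.12, adjusted p = 0.691) and Echs1 (-0.15 ± 0.09, adjusted p = 0.694) did not overlap and lay lower in transgenic muscle, 2 of 40 members, against 7.35% of all genes, and 0 lay higher without overlap, against 6.99%. Control replicate 3 lay below both other controls in 26 of 40 members, against 33.9% of all genes. For Cd36 the controls were 637, 527 and 393 CPM and the transgenic libraries 471, 461 and 444 CPM, so that the transgenic values lay within the range of the controls. For Fabp3 they were 357, 316 and 199 CPM and 255, 251 and 238 CPM, with the same order.

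The 2 untreated wild-type HFD groups, the controls of the transgene and the untreated HFD mice of the AQ experiment, show how far groups of wild-type mice on the same diet differed. In the transgene controls 34 of 40 members lay lower and 6 higher, where 49.7% of all genes lay higher, with a median log2 fold change of -0.11, and only Acad10 was called, where 4.46% of all genes were. At an unadjusted p under 0.05 there were 2 members, Acad10 and Cd36, against 20.2% of all genes. Acad10 lay at 2.76, 3.02 and 3.96 CPM in the transgene controls and at 4.15, 4.98 and 6.02 CPM in the other HFD group, without overlap (-0.51 ± 0.14, adjusted p = 0.0473). This call was lost without untreated HFD replicate 2 or 3 or control replicate 1 or 2 (adjusted p from 0.129 to 0.157) and with only the groups compared (adjusted p = 0.183), with log2 fold changes of -0.51 to -0.40. Cd36 (-0.42 ± 0.19, adjusted p = 0.214), Hsdl2 (-0.29 ± 0.14, adjusted p = 0.26), Etfdh (-0.30 ± 0.16, adjusted p = 0.317) and Cpt1a (-0.37 ± 0.19, adjusted p = 0.289) did not pass. In 5 members the groups did not overlap, all lower in the transgene controls, against 11.3% of all genes. Of the lists beside the members, Ucp3 (-1.24 ± 0.33, adjusted p = 0.0423) and Nrip1 (-0.94 ± 0.17, adjusted p = 0.00516) fell and Pdk2 rose (0.55 ± 0.07, adjusted p = 0.000854). The call of Ucp3 was lost without any 1 of the 6 libraries except untreated HFD replicate 3 (adjusted p from 0.0662 to 0.216). Of 12 clock genes 2 rose and 2 fell, among them Arntl (1.40 ± 0.28, adjusted p = 0.00901), whose call was lost without untreated HFD replicate 2 (adjusted p = 0.054). The 8 slow fibre markers had a median of -0.39, with 0 called by limma.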

How the data were processed

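The authors deposited, for 12558 gene symbols, a signal for each library that they call CPM. RNA was extracted with TRIzol and sequenced as single-end reads, per the labels' protocols. TopHat2 2.0.12, edgeR, GRCm38 and mm10 are named in the submitters' processing notes. How reads were counted, on which annotation and strand, and which genes were dropped is not given in the sources used here. Its columns summed to 929993 to 1071538, so this deposited signal is a scaled CPM. Each value (100% within 1e-06 reads) was a multiple of what 1 read is worth in its library, which gave 10404895 to 16082994 recovered reads per library. A floor of 3 reads covers counting error only. The 10 most abundant genes took 19.8% to 26.4% of a library's reads.

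The two-sided test was that of limma 3.58.1 (R 4.3.3, eBayes with a trend after lmFit) on log2(signal + 1), with the 6 groups in a single fit and 12 residual degrees of freedom. It ran on 12524 genes that reached 1 CPM in 3 or more libraries, with Benjamini-Hochberg adjustment over all of them and a threshold of 0.05. Log2 fold changes on this scale understate the change of low genes. They are given with the standard error. Diet was compared without AQ, with AQ and as the mean of both, and AQ on each diet and as an interaction with diet. The transgene was compared with its controls, and these controls with untreated HFD mice. These comparisons share groups: both diet comparisons and both AQ comparisons use the same 12 wild-type libraries, so their values are given side by side only. The alternatives were edgeR 4.0.16 (quasi-likelihood) and DESeq2 1.42.0 on the recovered reads, pseudocounts of 0.25 and 4, other filters and scaling, only the groups compared, a replicate block, removal of a GC trend (loess, span 0.3), and leaving out each library. The fits were tested on simulated data. Within a group, libraries differed beyond sampling noise (lowest chi-square per degree of freedom 4.22) and all were kept.

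All 40 members passed the filter. Fold changes are given for each member past the threshold and, in each comparison, for up to 4 others with the smallest p. From each other list up to 3 genes past the threshold are named. Also named are the 5 other genes with the highest Pearson r to the member mean. Genes described beyond this rule were chosen after their values were seen. The members and lists were chosen with earlier results of these data known. Coordinates and overlaps are from GENCODE M21 (GRCm38).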

Additional observations from a re-analysis of the deposited data

How the results depend on the processing

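Of the counts of members called, those for diet with AQ (29, from 29 to 30 over the alternatives and 24 to 29 with a library left out) and for the mean of both diet effects (28, from 27 to 28 and 27 to 29) stayed within 1.5 times their value. Those for AQ on HFD, AQ on chow, AQ by diet and the transgene were 0 under all alternatives run. The calls among all genes tested were less steady with a library left out. They went from 1324 to between 573 and 1130 for diet with AQ, and from 911 to between 487 and 1169 for the mean. Between the untreated diet groups the count of 3 members became 5 with DESeq2 and 0 with only the groups compared, and it ran from 0 to 17 with a library left out. Over all genes tested, the 6 calls there became 47 and 2, and they ran from 0 to 40 with a library left out. Between the HFD control groups the count of 1 became 0 with only the groups compared, and it ran from 0 to 1 with a library left out. The cause was not tested, though a fit of only the groups compared has fewer samples. Same-numbered libraries deviated together little on average (mean r of 0.04 against -0.02 for other pairs). Of 45 same-numbered pairs, 8 were over 0.1 and the highest r was 0.306. These values cannot tell whether some libraries of the same number were paired. With a replicate block the counts were 3 for diet, 29 for diet with AQ, 28 for the mean and 0 for the HFD control groups, where Acad10 had an adjusted p of 0.054. Over all genes tested, the block raised the calls from 6 to 12 for diet and from 6 to 49 for AQ on HFD. For AQ on chow it lowered them from 139 to 120. The count of members whose 6 HFD libraries of the AQ experiment lie above all chow libraries rose from 9 to 25 without untreated chow replicate 1, and that for all 12 HFD libraries from 2 to 21, an alternative chosen after seeing the data. No fold change rerun for a member changed direction. Of 138 calls of genes of the other lists over all comparisons, an alternative added after seeing the data, none changed direction, 27 were lost with only the groups compared, 26 with the GC trend removed, 3 with the replicate block, and up to 55 of 125 without AQ chow replicate 3. With 3 libraries a group, precision rests on the spread between libraries, and untreated chow replicate 1 moved the untreated diet count most. Members of 2 to 6 CPM, such as Decr2 and Acad10, rest on few reads.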
